A study of Mus musculus with 4 samples.

Results

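Steroid receptors and the proteins that make or convert steroids were examined in laser-captured Purkinje cells, the output neurons of the cerebellar cortex. The genes were Pgr, Pgrmc1, Esr1, Nr3c1, Nr3c2, Star, Cyp11a1, Hsd11b1 and Srd5a1, chosen by name. Every probe set that the platform's annotation table assigns to exactly 1 of these symbols was taken. This gave 21 of the 45101 probe sets on the Affymetrix array, for 8 of the 9 genes. Srd5a1 had no such probe set and was not analysed here. The mice were intact C57BL/6J males aged 8 weeks, and no treatment is named. All 4 samples belong to 1 group and come in pairs from 2 animals, numbered 1-1 and 1-2 for one animal, 2-1 and 2-2 for the other. The granule cell layer that the series names was not analysed here, and how the cells were recognised is not stated. Nothing in the labels says whether the samples of an animal were separate captures, so spreads and p-values measure only the spread between these samples, which may be technical.

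Steroid hormone receptors are transcription factors that bind their hormone in the cell and then act on target genes. Progesterone acts through Pgr, estrogen through Esr1, glucocorticoids through Nr3c1 and also Nr3c2, and mineralocorticoids through Nr3c2. Neurosteroids are steroids made within the nervous system. Their synthesis starts when Star brings cholesterol into mitochondria, where Cyp11a1 cuts it to pregnenolone, and Srd5a1 acts later on the way to steroids that modulate GABA-A receptors. Hsd11b1 regenerates active glucocorticoid from its inactive form. The Purkinje cell is known as a site of neurosteroid formation in the rodent brain, most strongly in the newborn.

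Levels are log2 signals after quantile normalization, which gives all arrays the same distribution. A gene was counted as above background when its brightest probe set exceeded a bound on all 4 arrays. The bound was the 95th percentile of each array's levels of 74 background genes, which are typical of organs outside the brain. It lay between 5.53 and 5.69 on the arrays. Among the 74 genes themselves, Krt10 and Tff1 passed it on all 4 arrays. The same amount of RNA can give different signals on different probe sets, so levels are compared between samples and with the bound, and not between genes.

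Of the 8 genes measured, 5 passed the bound on all 4 arrays, namely Pgr, Pgrmc1, Nr3c1, Nr3c2 and Hsd11b1. Esr1, Star and Cyp11a1 lay below it on every array with every probe set. The share over all 18193 named genes was 29.8%. Counted by probe set, 6 of the 21 passed on all 4 arrays, 0 on some arrays and 15 on none, against 21.7% of all named probe sets passing on all 4. With the bound at the 99th percentile only Pgr, Pgrmc1 and Nr3c1 remained, where 19.6% of all named genes passed. With the median over each gene's probe sets only Pgrmc1, Nr3c2 and Hsd11b1 did, where 20.3% of all named genes passed.

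**Figure D1:**
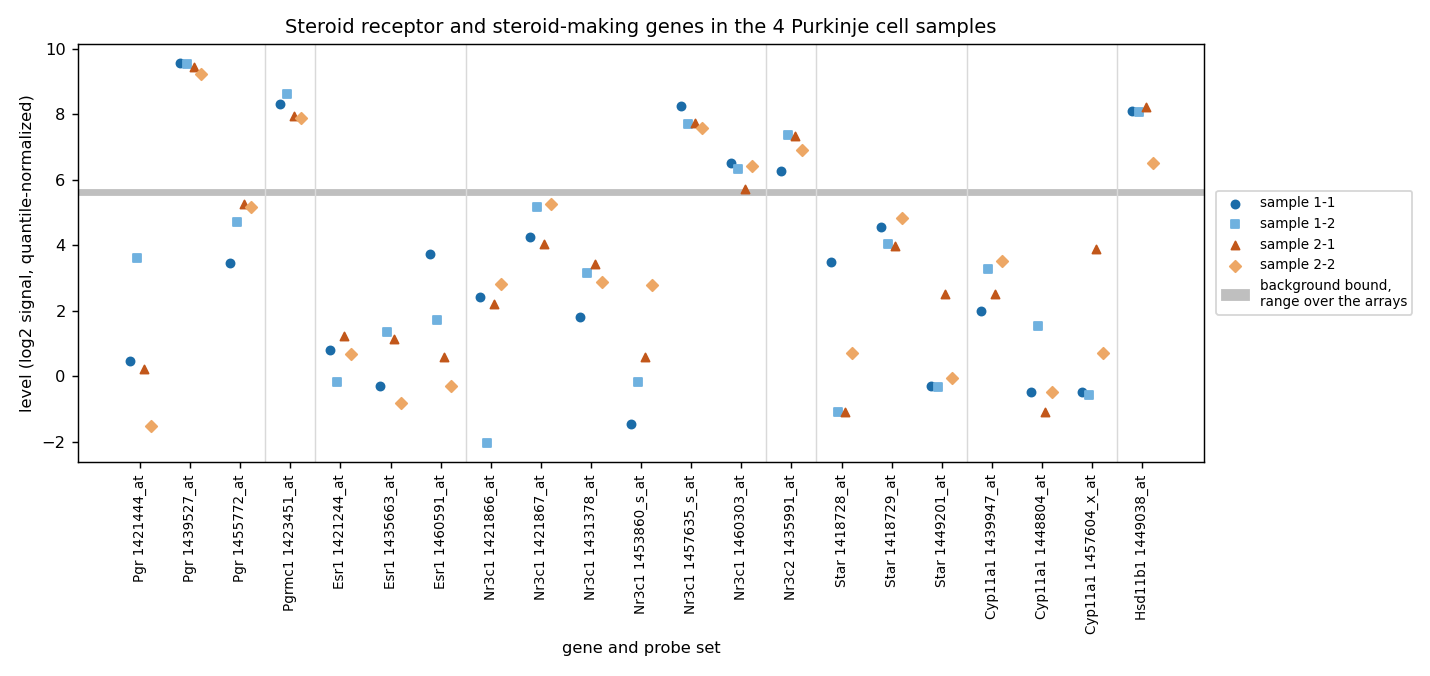
Quantile-normalized log2 level (vertical axis) of all 21 probe sets in the 4 samples, with the bound as a grey band from 5.53 to 5.69. The 6 probe sets of Pgr, Pgrmc1, Nr3c1, Nr3c2 and Hsd11b1 that lie above the band in all samples stand apart from the 15 that lie below it in all.

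To see what the genes share in sequence, the 250 bases before annotated transcription starts were searched on both strands for 3 short motifs. These were the GC box GGGCGG, which Sp-family factors bind, the half-site AGAACA of the glucocorticoid, mineralocorticoid and progesterone receptors, and the half-site AGGTCA of estrogen and ROR receptors. The sequences came from RefSeq, build GRCm38.p6, from which 9 windows of 7 genes were used. Star had no window there, and Nr3c1, which is above the bound, was left out by choice. The gene counts below cover neither. Shown first are 30 bases around the GC box nearest the start in Pgr and Nr3c2, then a whole window with many boxes (Pgrmc1) and one with none of the motifs (Esr1). Capitals mark motif matches, which did not overlap one another.
Pgr, chr9:8899774-8899803, plus strand: gggaggggctttGGGCGGgccttcctagag
Nr3c2, chr8:76902251-76902280, plus strand: cctcctcttggcCCGCCCcggccctgcccc
Pgrmc1, chrX:36597943-36598192, plus strand: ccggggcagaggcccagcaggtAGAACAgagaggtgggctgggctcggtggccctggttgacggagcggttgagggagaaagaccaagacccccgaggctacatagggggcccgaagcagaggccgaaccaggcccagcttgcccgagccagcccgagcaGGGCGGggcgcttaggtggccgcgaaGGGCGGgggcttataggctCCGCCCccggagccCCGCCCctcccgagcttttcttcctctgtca
Esr1, chr10:4611739-4611988, plus strand: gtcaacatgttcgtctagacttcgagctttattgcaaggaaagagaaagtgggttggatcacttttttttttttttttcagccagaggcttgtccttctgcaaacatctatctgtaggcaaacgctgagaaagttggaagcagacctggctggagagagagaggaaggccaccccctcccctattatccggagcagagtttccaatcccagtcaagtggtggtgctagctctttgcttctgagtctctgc

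The GC box was present in the windows of Pgr (1 match, 47 bases before the start), Pgrmc1 (4 matches) and Nr3c2 (3 matches), all above the bound, and of Srd5a1 (3 matches), which was not measured. Hsd11b1, above the bound, had none in its window, and neither did either window of Esr1 or of Cyp11a1. The Hsd11b1 window, chr1:193242361-193242610 on the minus strand, lies inside the gene, whose span ends at 193264045. Those of Pgr and Nr3c2 also lie inside their gene spans, so sequence before the outermost starts of these genes was not searched. Over the array, 59.2% of 5844 windows of genes above the bound on all 4 arrays held the box, as did 38.0% of 9101 windows of genes above it on none. The share was 32.7% over all 32851 windows, which include those of genes not measured on the array. AGAACA occurred once, in the Pgrmc1 window, and in 16.1% of all windows. AGGTCA occurred once, in the second Cyp11a1 window, and in 14.0% of all windows. These matches describe letters in the windows and were not tied to any binding measurement.

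Pgr, the nuclear progesterone receptor, was bright on 1 of its 3 probe sets. The deposited signals of 1439527_at were 631.8, 630.6, 744.9 and 773 in samples 1-1, 1-2, 2-1 and 2-2. On the normalized scale its levels were 9.56, 9.52, 9.44 and 9.21, a mean of 9.43 ± 0.15 (SD, n = 2 animals). All 4 samples lay at least 3.68 above the bound of their array, and all 74 background genes were dimmer than this probe set on every array. Its range over the samples was 0.35, against a median range of 0.80 over the 8296 probe sets that passed the bound on all 4.

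The other Pgr probe sets stayed below the bound in all 4 samples. The probe set 1455772_at gave 9.8, 22.8, 40.5 and 47 as deposited signals, with levels from 3.45 in sample 1-1 to 5.25 in sample 2-1. It lay below the bound by 0.30 in sample 2-1 and by 2.24 in sample 1-1. The probe set 1421444_at, the one annotated to a RefSeq mRNA, gave 1.2, 11, 1.2 and 0.4, with levels from -1.53 to 3.60. Probe sets of 1 gene on both sides of the bound were common on the array, but the distance in Pgr was wide. Of 3942 genes with 2 or more probe sets whose brightest passed on all 4 arrays, 69.8% had another probe set above the bound on no array. The mean levels of the Pgr probe sets spanned 8.74. The median span was 5.42 over the 1091 of those genes with exactly 3 probe sets. The sources used here do not say which transcript regions the probe sets cover. The call of Pgr above background rests on 1439527_at.

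Pgrmc1, a haem-binding membrane protein linked to rapid progesterone effects, had 1 probe set, 1423451_at. Deposited signals were 261.7, 327.8, 273.8 and 311.5, and levels were 8.32, 8.61, 7.96 and 7.87 (mean 8.19 ± 0.39, SD, n = 2 animals). The normalized levels of the animal 2 samples both lay below those of animal 1, while the deposited signals of the animals overlapped. All samples were at least 2.34 above the bound, and all 74 background genes were dimmer on every array.

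Nr3c1, the glucocorticoid receptor, had 6 probe sets, of which 2 passed the bound on all 4 arrays and 4 on none. The brightest, 1457635_s_at, gave 250.6, 170.8, 235 and 256.3 as deposited signals. Its levels were 8.26, 7.69, 7.73 and 7.58 (mean 7.82 ± 0.22, SD, n = 2 animals), highest in sample 1-1 and close together in the other samples. The suffix _s_at marks a probe set that can bind several transcripts. The second, 1460303_at, does not carry it and gave 74.6, 65.1, 56.6 and 115.9, with levels of 6.52, 6.31, 5.71 and 6.42. Sample 2-1 passed the bound by only 0.16 there, the narrowest margin of the 6 passing probe sets. Just outside the bound stood 1421867_at, with levels from 4.03 to 5.27, 0.26 below the bound in sample 2-2. The remaining 3 probe sets had mean levels of 0.43, 1.35 and 2.82, all below the bound.

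Nr3c2, the mineralocorticoid receptor, had 1 probe set, 1435991_at. Deposited signals were 61.9, 134.2, 180.1 and 160.7, and levels were 6.25, 7.35, 7.33 and 6.90 (mean 6.96 ± 0.22, SD, n = 2 animals). Sample 1-1 was the lowest, 0.56 above its bound, and the other samples lay 1.37 to 1.78 above theirs. Of the 74 background genes, 71 were dimmer on every array. The samples of animal 1 differed from each other by 1.10, so the spread within that animal was larger than the distance between the animals' means.

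Esr1, the estrogen receptor alpha, was below the bound in all samples with all 3 of its probe sets. The 3 gave deposited signals from 0.8 to 2.2 (1421244_at), 0.7 to 2.6 (1435663_at) and 1 to 12.1 (1460591_at). The highest single level was 3.74, in sample 1-1 on 1460591_at, which was 1.95 below the bound. At most 4 of the 74 background genes were dimmer than an Esr1 probe set on every array. A signal below the bound was not distinguishable from background on these arrays, which does not show that the RNA was absent.

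Star, the cholesterol carrier of the first step of steroid synthesis, was below the bound throughout. Its brightest probe set, 1418729_at, gave 20.7, 14.7, 15.5 and 36.8, with levels from 3.97 to 4.82 and a distance to the bound of 0.70 in sample 2-2. On every array 59 of the 74 background genes were dimmer than this probe set. The other 2 probe sets had mean levels of 0.50 and 0.46. Cyp11a1, the side-chain cleavage enzyme that makes pregnenolone, was also below the bound with all 3 probe sets. The brightest, 1439947_at, gave 3.6, 8.8, 5.6 and 13.7, with levels from 1.98 to 3.50, at least 2.02 below the bound. The highest Cyp11a1 level was 3.88, in sample 2-1 on 1457604_x_at, a probe set with the suffix of probes shared between sequences.

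Hsd11b1, which turns inactive glucocorticoid into its active form, had 1 probe set, 1449038_at. Deposited signals were 226.3, 222.6, 323.8 and 122.3, and levels were 8.10, 8.06, 8.20 and 6.50 (mean 7.72 ± 0.52, SD, n = 2 animals). The other samples lay within 0.14 of each other, while sample 2-2 lay 1.56 below the nearest of them. It still lay 0.98 above its bound, and 71 of 74 background genes were dimmer than Hsd11b1 on every array.

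**Figure D2:**
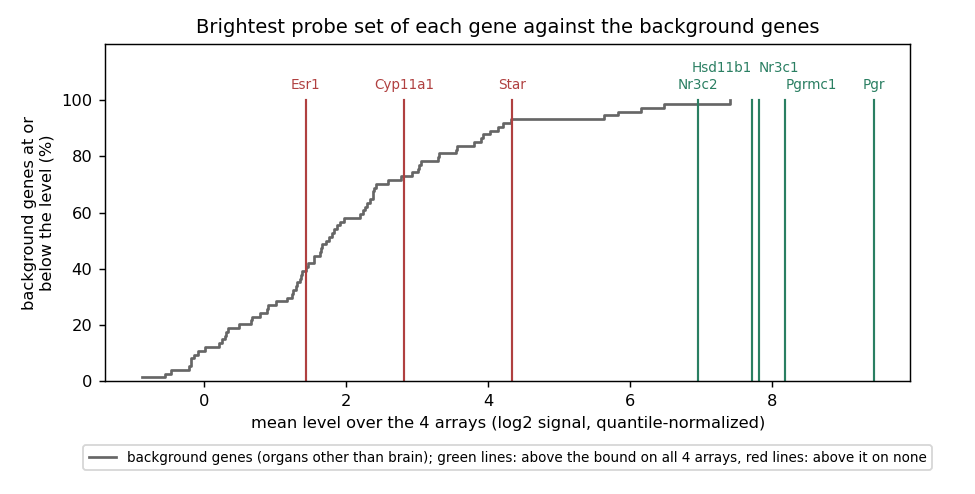
Share of the 74 background genes at or below a given mean level (vertical axis, %) against that mean level over the 4 arrays (horizontal axis, log2), with a vertical line for the brightest probe set of each gene. Esr1 and Cyp11a1 fall among the background genes, Star at 4.34 falls above most of them but below the bound, and Pgr, Pgrmc1, Nr3c1 and Hsd11b1 lie to the right of the brightest background gene, Krt10 at 7.40.

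The animals were then compared, animal 2 minus animal 1, by limma over the 11562 probe sets that passed the bound on 2 or more arrays. The labels do not distinguish the animals, so the contrast describes these samples only. Of the 6 steroid gene probe sets tested, 0 were called at an adjusted p under 0.05 (limma, Benjamini-Hochberg), and the smallest unadjusted p was 0.0912. Thus 0 of 6 had an unadjusted p under 0.05, beside 17.1% of all probe sets tested. The calls made up 0.303% of all probe sets tested (0.208% higher in animal 2, 0.0951% lower). Of these calls 68.6% were higher in animal 2, and of those on values as deposited 98.4% were. The other 15 probe sets did not pass the filter and were not tested.

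Differences on the normalized log2 scale were -0.21 ± 0.20 (SE) for Pgr 1439527_at and -0.55 ± 0.28 for Pgrmc1. They were -0.32 ± 0.33 and -0.35 ± 0.49 for Nr3c1 on 1457635_s_at and 1460303_at, and 0.31 ± 0.48 for Nr3c2. Adjusted p-values from limma ran from 0.369 for Pgrmc1 to 0.778 for Nr3c2. Without normalization the median difference over the probe sets tested was 0.48, higher in animal 2. Pgr and both Nr3c1 probe sets then had differences of the opposite sign, 0.27, 0.25 and 0.22. There the difference was -0.0042 for Pgrmc1, 0.90 for Nr3c2 and -0.17 for Hsd11b1, and none of the 6 was called. Leaving out a sample moved Pgr to between -0.34 and -0.10, and Nr3c1 1457635_s_at to between -0.59 and -0.04.

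For Hsd11b1 the difference was -0.73 ± 0.55 (SE, adjusted p = 0.545, limma). It rested on the unequal samples of animal 2, which differed from each other by 1.70, while those of animal 1 differed by 0.04. Without sample 2-1 the difference was -1.58 ± 0.32 (adjusted p = 0.0258, limma), in a fit that called 950 probe sets of the array, and without sample 2-2 it was 0.12 ± 0.28 (adjusted p = 0.810, limma). In both fits animal 2 was a single sample, assumed to vary like the samples of animal 1. The cell type markers also differed between the animals. By median over the brightest probe sets, animal 2 minus animal 1 was -1.26 for granule cells (5 genes), -0.27 for Bergmann glia and astrocytes (12 genes) and 0.13 for Purkinje cells (16 genes). It was also -1.26 for blood vessels (4 genes), from which nothing is read. There Pdgfrb and Cldn5 passed the filter only through animal 1, which set their direction, and Slc2a1 and Rgs5 were at -0.66 and 0.20. Of all marker probe sets tested, those called were Pcp2 1419085_at, higher in animal 2 by 0.57 ± 0.07 (SE, adjusted p = 0.0445, limma), and Calb1 1448738_at, which fell by 0.88 ± 0.10 (adjusted p = 0.0388, limma). They were 1 of 3 Pcp2 and 1 of 4 Calb1 probe sets, and the brightest Calb1 probe set had the same level in every sample. The part of these markers in the differences of the steroid genes was not tested.

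**Figure D3:**
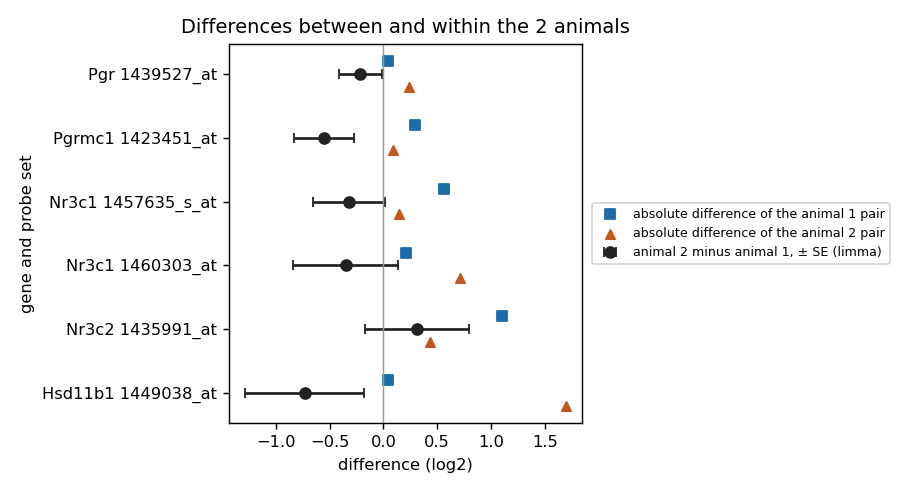
Difference of animal 2 minus animal 1 with its SE (black points and bars, horizontal axis, log2) for the 6 probe sets tested, beside the absolute difference of the samples within each animal (squares for animal 1, triangles for animal 2). The 1.70 between the animal 2 samples for Hsd11b1 and the 1.10 between the animal 1 samples for Nr3c2 exceed the difference between the animals. The larger difference within an animal also does so for Pgr and both Nr3c1 probe sets, and only for Pgrmc1 does it not.

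The wider machinery of steroid signalling was described with 7 lists of 134 genes, 116 of them measured. Of these, 61 (52.6%) passed the bound on all 4 arrays and 38 on none, beside 29.8% of all named genes. With the median over probe sets the count was 40 (34.5%), beside 20.3% of all named genes, and with the bound at the 99th percentile it was 41 (35.3%), beside 19.6%. Of 121 probe sets of these genes tested between the animals, 1 was called, of Hsp90aa1, beside 0.303% of all probe sets tested. The median difference was -0.01 over the 121 probe sets and -0.05 over all probe sets tested.

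Other steroid receptors and membrane receptors for progestins passed the bound in 7 of 14 cases, beside 29.8% of all named genes. The other 7 were above it on no array. Pgrmc2, a relative of Pgrmc1, was at 8.35 ± 0.31 (SD, n = 2 animals), and Nenf, a secreted member of that family, was at 7.69 ± 0.26. The membrane progestin receptors Paqr7, Paqr8 and Paqr9 were at 7.86 ± 0.08, 7.83 ± 0.19 and 6.58 ± 0.61, while Paqr5 and Paqr6 were above the bound on no array. The estrogen-related receptors, which bind no known natural estrogen, were represented by Esrra at 7.91 ± 0.35 and Esrrg at 7.47 ± 0.18, while Esrrb at 4.79 ± 0.10 was above the bound on no array. Estrogen receptor beta, Esr2, was at 0.78 ± 0.66 and the vitamin D receptor Vdr at 1.57 ± 0.90, both below the bound.

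Genes of steroid transport, synthesis and breakdown passed in 10 of 34 cases (29.4%), with 4 above the bound on 1 to 3 arrays and 20 on none. This share lay next to the 29.8% of all named genes. Among those that passed, the mitochondrial channel gene Vdac1 was at 12.80 ± 0.01 (SD, n = 2 animals) and Dbi, a ligand of the mitochondrial translocator protein, at 11.36 ± 0.39. Fdx1, the ferredoxin that passes electrons to Cyp11a1, was at 9.74 ± 0.07. The dehydrogenases Hsd17b4, Hsd17b12 and Hsd17b7 were at 9.57 ± 0.09, 8.82 ± 0.25 and 7.69 ± 0.49, enzymes that also serve fatty acid and cholesterol metabolism. Hsd17b2 (-0.86 ± 2.21) and the estrogen sulfotransferase Sult1e1 (-0.50 ± 0.31) were below the bound in every sample.

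Some genes of this list were picked out after their values were seen, because they act next to Star, Cyp11a1 or Hsd11b1. Stard3, a relative of Star, was at 6.73 ± 0.27 (SD, n = 2 animals) and Acbd3, a partner of the mitochondrial translocator protein, at 6.77 ± 0.49, both above the bound on all 4 arrays. The translocator gene Tspo had levels of 6.34, 6.30, 4.88 and 5.16 and passed in both samples of animal 1 only. Hsd3b1, which converts pregnenolone to progesterone, was at 1.73 ± 1.38 (SD, n = 2 animals), and Cyp17a1, needed for sex steroids, at 0.08 ± 0.46. Akr1c14, which makes allopregnanolone from the product of Srd5a1, was at 0.48 ± 2.69. H6pd, which supplies Hsd11b1 with its cofactor, had levels of 5.24, 5.59, 3.55 and 3.73, and Hsd11b2, which inactivates glucocorticoids, was at 3.04 ± 0.10. These last 5, from Hsd3b1 to Hsd11b2, were above the bound on no array, and so were the Star relatives Stard4 and Stard5.

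Chaperones that hold steroid receptors ready for hormone passed the bound in 12 of 14 cases, beside 29.8% of all named genes. The other 2 passed on some arrays, and 14 of the 17 chaperones listed were measured. Hspa8 was at 13.49 ± 0.02 and Hsp90aa1, the main chaperone of the glucocorticoid receptor, at 12.46 ± 0.02 (SD, n = 2 animals). The co-chaperones Dnaja1, Dnajb1, St13 and Hspa4 were at 11.30 ± 0.04, 10.94 ± 0.22, 10.73 ± 0.01 and 10.19 ± 0.20. Hsp90aa1 was higher in animal 2 on 1437497_a_at, with levels of 11.68, 11.71, 12.23 and 12.29. The difference was 0.57 ± 0.07 (SE, adjusted p = 0.0499, limma), and both samples of animal 2 lay above both of animal 1. On its brightest probe set, 1438902_a_at, the difference was -0.02 ± 0.07 and on 1426645_at it was -0.22 ± 0.13, neither called. The call was lost when arrays were scaled to 1 trimmed mean (adjusted p = 0.0827, limma), without the filter (0.225), without the trend (0.355) and without sample 1-1 (0.366) or 1-2 (0.303). The difference itself stayed between 0.49 and 0.59 in these settings. The call was kept on values as deposited (difference 0.99, adjusted p = 0.0208, limma), with an offset of 16 (0.0446), with only probe sets that passed on all 4 arrays (0.0223), and without sample 2-1 (0.0116) or 2-2 (0.0198). By brightest probe set, most Purkinje cell markers were higher in animal 2, with a median difference of 0.13 over the 16 measured. The largest differences were those of Pcp2, Rgs8, Lhx1 and Slc32a1, at 0.57, 0.56, 0.50 and 0.48. These genes were higher in both samples of animal 2. Lower in animal 2 were Gng13, Rora, Foxp2 and Dner, at -0.21, -0.13, -0.03 and -0.02, and Calb1 did not differ. The part of these markers in the Hsp90aa1 value was not tested. On simulated data the share of false calls at this threshold was above the nominal rate in most runs. Fkbp5, a co-chaperone that glucocorticoids induce, had levels of 3.59, 3.39, 4.51 and 7.30 and was above the bound in sample 2-2 only.

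Coregulators, which receptors recruit to their target genes, passed in 13 of 16 cases, beside 29.8% of all named genes. The other 3 passed on some arrays. Ncoa7 was at 10.30 ± 0.03 and the acetyltransferase Kat2b at 9.54 ± 0.04 (SD, n = 2 animals). The steroid receptor coactivators Ncoa2 and Ncoa1 were at 9.42 ± 0.24 and 9.21 ± 0.35, Ncoa4 was at 8.19 ± 0.53 and Crebbp at 7.47 ± 0.06.

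Among 18 genes known to respond to glucocorticoids, 9 passed on all 4 arrays, beside 29.8% of all named genes. A further 7 passed on some arrays and 2 on none. The metallothioneins Mt1 and Mt2 were at 11.55 ± 0.22 and 10.45 ± 0.13, and the transcription factor Klf9 at 11.02 ± 0.43 (SD, n = 2 animals). Nfkbia, an inhibitor of NF-kappa-B, was at 10.61 ± 0.35, Errfi1 at 10.20 ± 0.17 and the kinase Sgk1 at 8.75 ± 0.14. Lcn2 at -1.40 ± 0.32 and Plin4 at 3.57 ± 0.22 were below the bound. These genes answer to many other signals, and no sample was treated with a hormone.

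Genes known to respond to estrogen or progesterone passed in 6 of 13 cases, beside 29.8% of all named genes. The other 7 were above the bound on no array. Xbp1 was at 11.51 ± 0.06, Igf1 at 8.65 ± 0.33 and Cited2 at 8.51 ± 0.18 (SD, n = 2 animals). Foxo1, Penk and Bcl2 were at 6.90 ± 0.30, 6.59 ± 0.88 and 6.47 ± 0.24. Myb (0.66 ± 3.03) and Wnt4 (2.22 ± 1.02) were below the bound in every sample.

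Subunits of the GABA-A receptor, the channel on which neurosteroids act, passed in 4 of 8 cases, beside 29.8% of all named genes. A further 2 passed on some arrays and 2 on none. Gabrb2 was at 10.83 ± 0.14 and Gabra4 at 7.75 ± 0.65, Gabrb1 was at 7.39 ± 0.76 and Gabra6, a granule cell subunit, at 9.30 ± 0.87 (SD, n = 2 animals). Gabra5 (0.55 ± 2.25) and Gabra3 (1.83 ± 1.57) were below the bound.

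**Figure D4:**
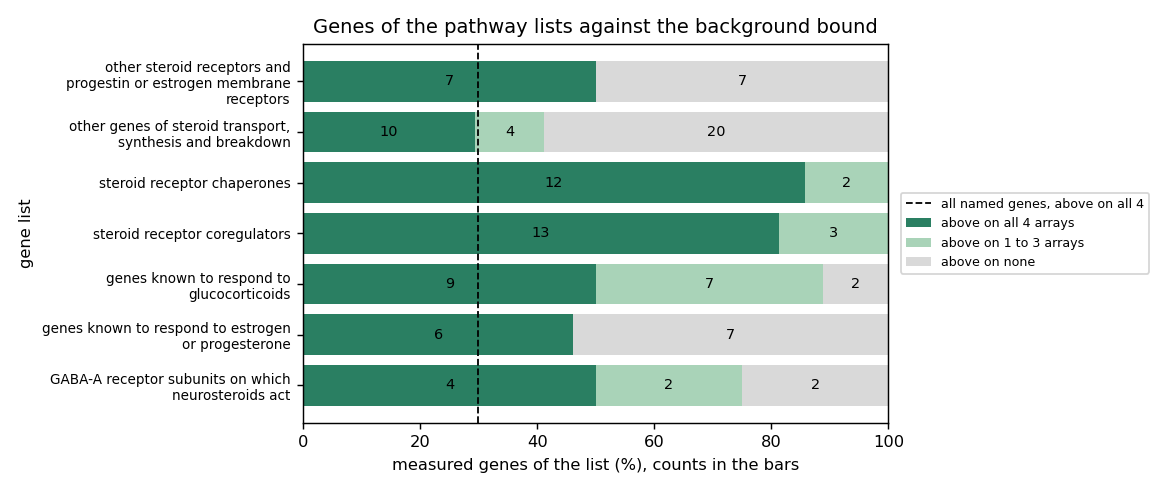
Share of the measured genes of each list (horizontal axis, %) above the bound on all 4 arrays, on 1 to 3 or on none, with counts in the bars and the 29.8% of all named genes as a dashed line. Chaperones (12 of 14) and coregulators (13 of 16) lie mostly to the full side, and steroid synthesis (10 of 34) lies at the line.

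Markers of other cell types passed the bound in some cases. All 16 measured Purkinje cell markers passed the bound on all 4 arrays, among them Calb1 at 13.68 in every sample and Pcp4 at 13.58 ± 0.06 (SD, n = 2 animals). Quantile normalization gives equal ranks the same value, so the equal Calb1 values show its rank on the arrays and not equal RNA. Beside 29.8% of all named genes, 10 of 14 markers of Bergmann glia and astrocytes passed on all 4 arrays. The mean level of the 14 was 7.67 to 8.02 in the samples. Of the granule cell markers 5 of 11 passed on all 4 arrays, and the 11 had a mean level of 6.20 and 6.63 in animal 1 and of 5.50 and 5.18 in animal 2. Counts were 3 of 10 for oligodendrocytes, 2 of 8 for interneurons, 2 of 11 for blood vessels, 1 of 10 for microglia and 1 of 10 for choroid plexus and meninges, shares close to or below that of all named genes, from which nothing is read about RNA of those cells. Which of these cells gave the signals of Pgr, Pgrmc1, Nr3c1, Nr3c2 or Hsd11b1 was not tested. In such mixed captures, fewer cells of a type and less RNA per cell cannot be told apart. The arrays' median deposited signals were 8.4 to 11.4 and their trimmed means 55.8 to 87.6. With 4 arrays in all, precision is limited by their number.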

How the data were processed

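Cells were cut by laser from frozen, ethanol-fixed brain sections, and their RNA was amplified in 2 cycles, per the labels' protocols. For each probe set the authors deposited a linear intensity from GCOS, per the submitters' processing notes. The sources used here give neither its version nor its scaling.

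Signals under 0.1 were set to 0.1 and log2 was taken, without 64 control probe sets. Because the arrays' 2% trimmed means differed by 46.6% of their average, above the limit of 5%, quantile normalization was applied (limma 3.58.1, R 4.3.3). Of the probe sets, 34945 had 1 gene symbol, 932 several and 9160 none. The symbols of all 8 genes measured matched RefSeq. Each gene was represented by the probe set of highest mean level. Of 83 background genes listed, 74 were measured. Animals were compared in limma (lmFit, then eBayes with its trend option, 2 residual degrees of freedom), and calls were made at a Benjamini-Hochberg adjusted p under 0.05. Means and SDs were taken over 2 animals after averaging each animal's samples.

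The genes and lists were chosen with earlier results of these data known. In each list the genes named were up to 6 with the highest level among those above the bound on all 4 arrays, up to 2 of the lowest among those above it on no array, and any called. Of markers the rule names the 2 highest of each list, given here for Purkinje cells alone, and any called. Other names were added after their values were seen. The fit was tested on simulated data: calls had the right direction, and the share of false calls was above the nominal rate in most runs. Alternatives were other bounds, normalizations, filters, offsets and choices of probe sets, and leaving out each sample.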

Additional observations from a re-analysis of the deposited data

Results flagged for a closer look

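In 3 of the 21 probe sets, 1 sample stood far from the other samples, with a gap to its nearest neighbour above 0.829 of the whole range, the 95% critical value of Dixon's test for 4 samples. That value holds for independent, normally distributed samples, where about 1 in 20 probe sets would be flagged. These samples come in pairs from 2 animals, and the share flagged over the whole array is not given here. No excess is therefore read from the 3. For Hsd11b1 (1449038_at) sample 2-2 was low, at 6.50 against 8.06 to 8.20, and the gap was 0.917 of the range. For Star (1449201_at) sample 2-1 was high, at 2.52 against -0.34 to -0.05, a gap of 0.900 of the range. For Nr3c1 (1421866_at) sample 1-2 was low, at -2.03 against 2.22 to 2.81, a gap of 0.877 of the range. The Star and Nr3c1 probe sets were below the background bound in every sample, and only Hsd11b1 was above it.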

How the results depend on the processing

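The 5 genes above the bound stayed 5 with the bound at the 90th percentile, on values as deposited, with plain _at probe sets only, with 2 of 4 arrays required and without any 1 sample (5 to 5). They were 3 with the bound at the 99th percentile and 3 with the median over probe sets. The 61 list genes above the bound became 40 with the median over probe sets. Called steroid gene probe sets numbered 0 in every other setting and 0 to 1 with a sample left out, the 1 being Hsd11b1 without sample 2-1. Called probe sets of the whole array were 35 as reported, 563 on values as deposited (554 higher), 20 after scaling to 1 trimmed mean, 55 with an offset of 16, 5 with no filter, 159 above the bound on all 4 arrays, 0 without the trend (1737 at an unadjusted p under 0.05) and 5 to 1070 with a sample left out (6 without 1-1, 5 without 1-2, 950 without 2-1, 1070 without 2-2). The cause of these changes was not tested. As deposited, the range over samples was 0.32 for Pgrmc1 in place of 0.74, and differences between animals turned to 0.27 for Pgr, 0.25 for Nr3c1 1457635_s_at and 0.22 for 1460303_at. With a sample left out they ran from -1.58 to 0.12 for Hsd11b1, from -0.71 to 0.0064 for Nr3c1 1460303_at and from -0.24 to 0.86 for Nr3c2. With the sample number as a replicate block, 245 probe sets of the array were called and 0 of the steroid gene probe sets. Over the 8296 probe sets that passed the bound on all 4 arrays, same-numbered samples did not deviate together (correlation -0.02). With 1 difference per animal, this value cannot decide whether the numbers pair the samples. A second background list was not run, since no other list was at hand.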
